A study of Mus musculus with 6 samples.

Results

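RNA of mouse epididymis was compared directly with RNA of the stromal-vascular fraction (SVF) of adipose tissue on 2 arrays of a 6-array series. The pair was chosen by its labels: one array is titled epididymis against SVF and the other SVF against epididymis. The series holds 3 RNA samples, 1 each of SVF, testis and epididymis, hybridised in 3 dye-swap pairs, and the other 4 arrays compare testis with SVF and epididymis with testis. On array 1 the epididymis RNA carried the red dye Cy5 and the SVF RNA the green dye Cy3; on array 2 the dyes were exchanged. The labels name total RNA and a tissue for each channel and no treatment. They give no strain, age, number of animals, fat depot, epididymal segment or method of preparing the SVF, so none of these can be set beside the values.

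Each number below is a log2 ratio of epididymis over SVF unless another pair is named, so that 0 is equal signal, 1 is 2-fold higher in epididymis and -1 is 2-fold higher in SVF. The direction and the logarithm's base are readings and not stated facts. As deposited, the 2 arrays correlated at -0.64 over all probes, the sign that an exchange of dyes gives when each value is Cy5 over Cy3, and array 2 was turned. The genes at the ends were those of the duct on one side and of blood-derived and connective cells on the other, the direction the labels name. Base 2 is the likely reading, and a natural logarithm, under which each difference would be larger, is also possible. One RNA per tissue allows no test between tissues. The SD given with a mean covers only the 2 hybridisations (n = 2) of the same RNAs, and a gene was called higher in a tissue when both arrays passed 2-fold in that direction.

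The epididymis is the long coiled duct in which sperm leaving the testis mature and are stored. Its principal cells secrete proteins that coat the sperm, its clear cells acidify the lumen, basal cells lie under them, and smooth muscle wraps the tube. The SVF is what remains of collagenase-digested fat once the buoyant adipocytes have floated off: adipocyte progenitors, fibroblasts, endothelium, pericytes, mesothelium, macrophages and lymphocytes. The genes that cells switch on within minutes of mechanical or inflammatory stimulation, the immediate early genes and the targets of the transcription factor NF-kappaB, are known to respond to tissue digestion as well.

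The regions just upstream of 7 genes are shown as examples of groups that the results describe on both sides: cytokine genes and an NF-kappaB inhibitor high in SVF, and secreted-protein genes high in the epididymis. The sequences are those of RefSeq on GRCm38.p6, the last 130 bases before the transcription start, 5′ to 3′ on the gene's strand. Capitals mark matches on either strand to the core letters of many NF-kappaB sites, GGNNTTTCC. In Lcn5 they mark the TATA box letters TATAAA. In Spint4 they mark TGANTCA, a loose form of the AP-1 letters that takes any base in the middle. That base is A in Spint4, where the usual AP-1 site has G or C. The genes were chosen after their values were seen. Il6 lies at chr5:30012984-30013113 on the plus strand, Cxcl1 at chr5:90891115-90891244 (plus), Cxcl2 at chr5:90903769-90903898 (plus), Nfkbia at chr12:55492648-55492777 (minus), Lcn5 at chr2:25657822-25657951 (plus), Lcn8 at chr2:25652988-25653117 (plus) and Spint4 at chr2:164698371-164698500 (plus).
Il6: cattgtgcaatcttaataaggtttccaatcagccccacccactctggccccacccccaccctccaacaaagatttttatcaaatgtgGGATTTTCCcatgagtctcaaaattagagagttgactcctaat
Cxcl1: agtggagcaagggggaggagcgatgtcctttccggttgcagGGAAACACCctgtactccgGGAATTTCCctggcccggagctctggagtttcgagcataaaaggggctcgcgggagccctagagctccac
Cxcl2: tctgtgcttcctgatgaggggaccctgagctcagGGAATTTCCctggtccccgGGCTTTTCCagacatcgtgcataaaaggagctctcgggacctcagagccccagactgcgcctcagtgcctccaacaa
Nfkbia: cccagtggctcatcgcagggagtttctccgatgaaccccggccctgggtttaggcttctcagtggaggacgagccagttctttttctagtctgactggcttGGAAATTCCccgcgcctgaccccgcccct
Lcn5: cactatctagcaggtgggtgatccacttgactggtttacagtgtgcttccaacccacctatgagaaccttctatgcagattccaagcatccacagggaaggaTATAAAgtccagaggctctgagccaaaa
Lcn8: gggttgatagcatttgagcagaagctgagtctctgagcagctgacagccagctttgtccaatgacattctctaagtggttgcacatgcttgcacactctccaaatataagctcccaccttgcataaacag
Spint4: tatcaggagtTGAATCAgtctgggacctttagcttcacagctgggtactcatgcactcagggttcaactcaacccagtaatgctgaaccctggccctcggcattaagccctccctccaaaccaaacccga

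The NF-kappaB letters start 43 bases before the start in Il6, 89 and 70 bases before it in Cxcl1, 96 and 77 bases before it in Cxcl2, and 29 bases before it in Nfkbia. The 8 motifs searched for on both strands of the 250 bases before each start were these 3, the cAMP response element TGACGTCA, the PEA3 letters AGGAAG, the C/EBP letters TTGCGCAA, the steroid receptor half-site TGTTCT and the longer motif of HNF1. A longer form of the NF-kappaB letters was also tried and is not reported here, so this form was settled on after values were seen. Of all 27025 genes with a promoter in the table, 5.62% held the NF-kappaB letters. By the rule above, 8.68% of all genes measured were SVF-high and 10.2% epididymis-high. The letters were found in 8.23% of the 1227 SVF-high genes with a promoter, in 6.2% of the 1501 epididymis-high genes and in 5.73% of the 14738 measured genes. Of the 23 listed chemokines with a promoter, 6 held them, and of 25 listed NF-kappaB targets 8 did. Genes can be known as targets through such sites, so the second count is no test. The AP-1 letters were in 3 of these chemokines, 6 of these targets and 1 of 29 listed immediate early genes. AGGAAG was in 12 of the chemokines and 10 of the targets, and TATAAA in 8 and 3. All AP-1 counts here take the loose form, with any base in the middle. The AP-1 letters were in 7.82% of all genes, 7.25% of the measured, 10.8% of the SVF-high and 6.33% of the epididymis-high genes. TATAAA was in 14.3% of all genes, 12.1% of the measured, 12.5% of the SVF-high and 9.93% of the epididymis-high genes. AGGAAG was in 32.3% of all genes, 31.8% of the measured, 40.1% of the SVF-high and 30.4% of the epididymis-high genes. In the same order, TGTTCT was in 18.2%, 15.4%, 15.7% and 16.1% of these sets, and TGACGTCA in 1.77%, 2.4%, 1.79% and 2.2%. TTGCGCAA was in 0.185%, 0.217%, 0.0815% and 0.133% of them, and the HNF1 motif in 0.074%, 0.0746%, 0.0815% and 0.0666%. These are counts of letters in a window and not of bound sites.

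Of 18545 named genes, 1890 (10.2%) were called higher in the epididymis and 1609 (8.68%) higher in SVF. The means ran from -7.75 to 8.57, with a median of 0.07. Between the 25th and 75th percentiles they ran from -0.41 to 0.60, and 73.7% of genes lay within 2-fold. At 4-fold on both arrays, 500 genes (2.7%) were higher in the epididymis and 675 (3.64%) in SVF. In the far tails, 107 epididymis-high genes had a mean of 4 or more and 102 SVF-high genes a mean of -4 or less. The gene just inside the rule on the epididymis side was Gpt2, whose smaller array value was 1.00, and Vasp held that place on the SVF side. The 2 arrays correlated at 0.71 over genes after the turn (Spearman 0.57), as a description of technical repeats. The median SD over the 2 arrays was 0.37. Total RNA of a mixed tissue was hybridised, so fewer cells of a type and less RNA per cell cannot be told apart in any value below.

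**Figure D1:**
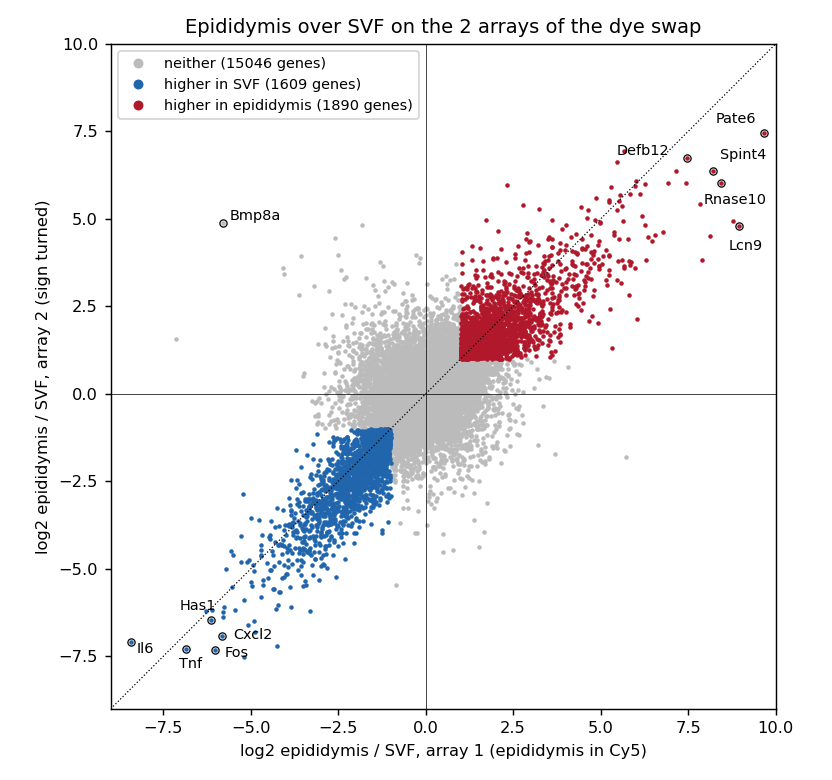
Log2 epididymis over SVF of each named gene on array 1 (x axis) and, with its sign turned, on array 2 (y axis); colours mark the 1890 genes higher in epididymis, the 1609 higher in SVF and the others, and circles mark labelled genes. Most called genes lie along the dotted line of equality, while Bmp8a read -5.80 on one array and 4.87 on the other.

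Marker genes of the labelled tissues were called in part. They describe the values and are no check of direction, since duct and connective genes had helped to read it. Of the principal cell markers, listed with earlier results of these data known, Rnase10 was 8.45 and 6.03 on arrays 1 and 2, and Adam7 6.29 and 3.81. Lcn5 was 4.93 and 2.02, Lcn8 4.45 and 2.39, and Gpx5 3.13 and 1.28. The basal cell keratin gene Krt5 was 4.50 and 2.61, and Krt14 was 1.66 and 2.05. The clear cell transcription factor Foxi1 was 2.52 and 2.12, but the pump subunits used as clear cell markers were not called: Atp6v1b1 was -0.15 and 0.17, Atp6v0d2 1.11 and 0.98, and Atp6v1g3 -0.57 and 1.86. On the SVF side, the progenitor marker Cd34 was -2.10 and -3.70, while Pdgfra was -0.54 and -1.28 and Dpp4 0.72 and -0.22, neither of them called. A ratio near 0 shows a like signal in both RNAs and does not show that the gene was silent.

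The 3 highest genes were Pate6, Spint4 and Rnase10. Pate6, of the Ly6-like PATE family of secreted cysteine-rich proteins, stood at the top at 9.68 and 7.45, a mean of 8.57 ± 1.58 or 379-fold. Spint4, a Kunitz protease inhibitor whose upstream region is printed above, was 8.22 and 6.36. Rnase10, a ribonuclease-like protein without the enzyme's activity that principal cells of the proximal duct secrete, averaged 7.24 ± 1.71. Both arrays placed these genes far above the threshold, with array 1 the larger. The 24 highest genes ran from 5.55 to 8.57, and array 1 was the larger in 19 of them.

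All 10 measured lipocalin, ribonuclease and cystatin genes of the duct were higher in the epididymis, with a median of 3.87 (4.46 on array 1 and 3.56 on array 2). Lipocalins carry small lipophilic molecules such as retinoids in the lumen. Lcn9 showed the widest gap between arrays, 8.95 against 4.81. Lcn10 was 4.27 and 3.66. The cystatin genes, whose products belong to a family of cysteine protease inhibitors, included Cst11 at 5.23 and 3.55 and Cst12 at 3.99 and 3.58. Rnase9 was 4.47 and 3.73. The lowest of the 10, Cst13, had a mean of 1.46, so that the whole list lay above the median gene. In epididymis over testis Cst13 was -4.42, beside a list median of 3.71, so its signal need not be that of the duct.

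Protease inhibitors of the duct were higher in the epididymis in 11 of 12 cases, with a median of 4.62. These inhibitors are held to protect sperm and luminal proteins from proteolysis. Serpina1f, a serpin, was 8.78 and 4.94. The Kazal inhibitor Spink12 was 6.11 and 5.73, with the arrays close together, and Eppin, a sperm-coating protein, was 6.27 and 4.81. Spink10 was 5.60 and 5.36 directly, and 8.49 by the chain through testis, the sum of epididymis over testis and testis over SVF on the other 4 arrays. Wfdc15b was 5.97 and 3.60. Wfdc15a and Spink2 were also called, with means of 1.33 and 4.46. In epididymis over testis they were -3.76 and -0.77, beside a list median of 3.60.

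All 17 measured beta-defensin genes were called higher in the epididymis, with a median of 4.42 and a range from 3.49 to 7.10. Beta-defensins are small cationic peptides that kill microbes, and several coat maturing sperm. Defb12 was 7.46 and 6.74, Defb38 7.16 and 6.37, Defb15 5.55 and 5.68, and Defb40 5.29 and 5.92. The arrays of these 4 genes differed by less than 1. Defb2 was less repeatable, at 5.87 and 3.78. The chain through testis gave a list median of 5.23.

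Sperm surface and luminal proteins were called in 17 of 20 cases (median 2.99), and the remaining 3 were Hyal5, Teddm3 and Spam1, with means below 0.5, which were singled out after their values were seen. Ceacam10, of the carcinoembryonic antigen family, was 7.45 and 6.03. Teddm1a, a membrane protein gene named for the epididymis, was 6.54 and 4.55. Spag11a, a defensin-like sperm-binding protein, was 6.36 and 4.49, and Ovch2, which codes for a secreted protease-like protein called ovochymase, was 5.23 and 3.97. Adam7, a membrane protein passed to sperm in the duct, averaged 5.05 ± 1.75. Other genes among the 24 highest with both arrays close together were Bsph2, a binder-of-sperm protein (6.05 ± 0.06), and Serpinc1, which codes for antithrombin (5.99 and 5.93). Sost, a secreted Wnt antagonist best known from bone, was 5.46 and 6.63. Acbd7, Cwh43, Hpdl and Ptpn5 had means of 6.47, 6.14, 5.76 and 5.71.

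**Figure D2:**
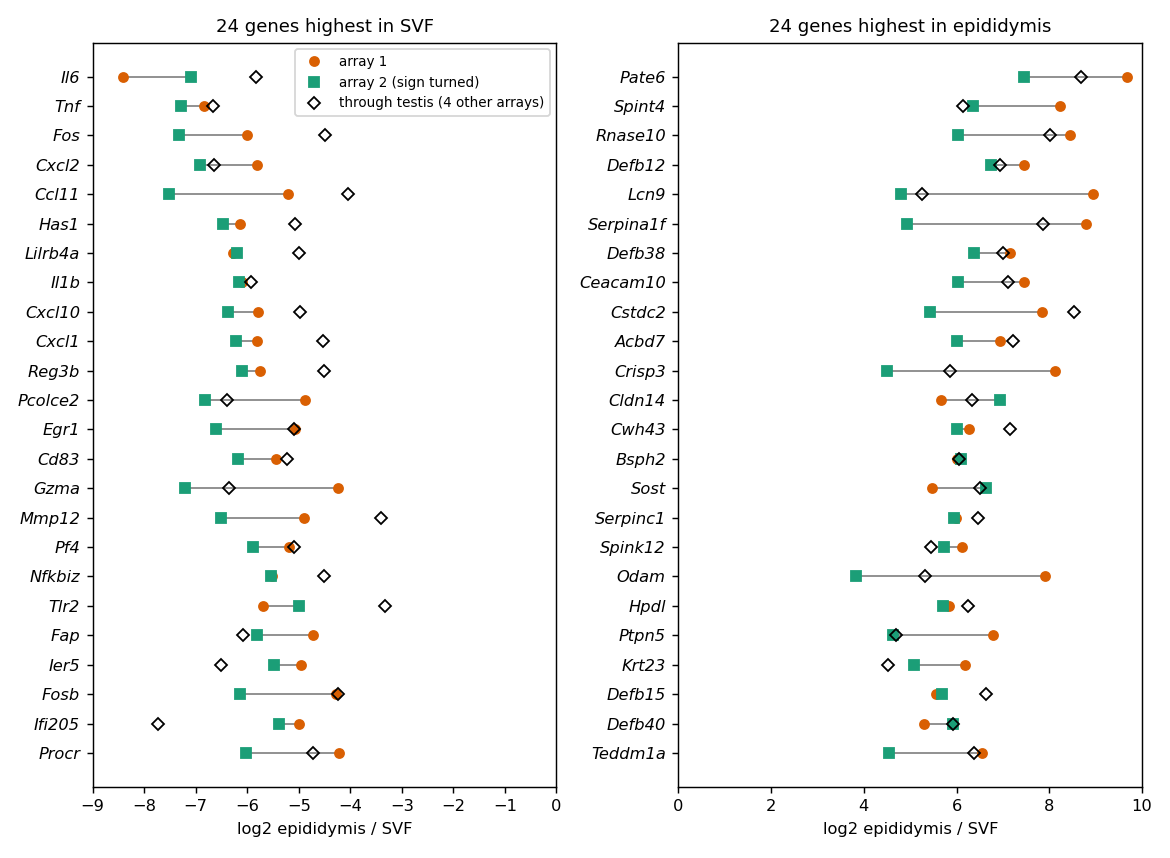
Log2 epididymis over SVF (x axis) of the 24 genes highest in SVF (left) and the 24 highest in epididymis (right), with circles for array 1, squares for array 2 with its sign turned, and open diamonds for the sum through testis from the 4 other arrays. All 48 genes pass 2-fold in the same direction by the sum through testis. The median of the 24 genes highest in SVF was -5.84 directly and -5.08 by the sum. For the 24 highest in epididymis it was 6.22 and 6.42. Il6, Fos, Ccl11 and Tlr2 are examples of genes nearer to 0 by the sum than on either direct array.

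Genes of the initial segment, the most proximal stretch of duct, were mixed. Ros1, a receptor tyrosine kinase needed for this segment to develop, was 3.61 and 3.16. Etv4 and Etv5, ETS factors downstream of growth factor signals, were 1.75 and 1.27, and 1.79 and 1.20. Spry2, a feedback inhibitor of the same signals, was higher in SVF at -1.85 and -2.35, and Ptpn6, a phosphatase abundant in leukocytes, at -1.29 and -1.26. In all, 3 of 8 measured members were higher in the epididymis and 2 in SVF.

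Epithelial genes formed the second large group on the epididymis side. Of 32 junction and polarity genes, 22 were higher in the epididymis and none in SVF, with a median of 2.23 on the mean of both arrays. Cldn14, a tight junction claudin, led at 5.66 and 6.95. Epcam, the epithelial adhesion molecule, was 5.58 and 3.18, and Cldn3 was 5.03 and 3.71. Cldn2 was 4.20 and 4.08, with little spread. Ocln, which codes for the tight junction protein occludin, was 4.44 and 3.50. Cdh1, or E-cadherin, was 4.56 and 3.07, against 1.89 by the chain through testis. The simple keratins Krt8 and Krt18, which stand on the mesothelial list too because mesothelium also expresses them, were 3.55 and 3.20, and 3.80 and 2.82.

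Transcription and splicing factors of epithelium were called higher in the epididymis in 8 of 16 cases, with a median of 1.31, and none was higher in SVF. Esrp1 and Esrp2, which set the epithelial pattern of splicing, were 3.50 and 4.42, and 3.69 and 1.94. The grainyhead factors Grhl1 and Grhl2 were 4.67 and 2.10, and 3.54 and 1.69. Grhl2 is the average of 2 probes that differ, 1 at 5.76 and 3.69 and the other, not called, at 1.32 and -0.31. Tfcp2l1, a related factor of kidney and gland ducts, was 1.44 and 2.92. Trp63, the basal cell factor p63, was 1.92 and 3.87 directly but 0.32 by the chain through testis, where its epididymis over testis value had an SD of 3.60. Its call rests on the direct arrays.

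Factors that pattern the urogenital tract were called in 13 of 32 cases, all higher in the epididymis, with a median of 0.89. Hoxb6 had the largest ratio, 4.77 and 4.03, or 21.1-fold on the mean. Emx2 and Pax8, needed for the reproductive ducts and kidney to form, were 3.31 and 3.39, and 3.77 and 2.69. Hoxd8 was 3.61 and 2.89, Hoxd4 1.86 and 3.43, and Hoxa11 1.45 and 3.32. Over all 36 measured Hox genes, 11 were higher in the epididymis and 1 in SVF. By cluster, 4 of 9 Hoxb genes, 4 of 9 Hoxd genes, 3 of 10 Hoxa genes and 0 of 8 Hoxc genes were called higher in the epididymis. The Hoxc genes stayed between -0.94 and 0.81. The difference between clusters was not tested.

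Ion, water and acid transport genes were higher in the epididymis in 10 of 28 cases and in SVF in 1. The duct reabsorbs most of the fluid that leaves the testis and keeps its lumen acid. Aqp9, the principal cells' water and solute channel, was 2.79 and 3.47. The chloride channel gene Cftr was 2.04 and 2.80, the chloride and bicarbonate exchanger Slc26a3 1.24 and 3.15, the potassium channel Kcnj16 2.77 and 2.45, and the sodium pump subunit Atp1b1 2.73 and 2.18. Aqp1, the water channel of endothelium, went the other way at -2.94 and -3.50. The 21 proton pump genes had a median of 0.67, with 5 higher in the epididymis and 1 in SVF. These shares are 23.8% and 4.76%, beside 10.2% and 8.68% of all genes. Foxi1 had the largest mean of these, 2.32 ± 0.28. Atp6v1d, Atp6v1g1 and Atp6v1e1, subunits of the pump's cytoplasmic part, averaged 1.77, 1.53 and 1.37, and the membrane subunit Atp6v0a1 was -1.01 and -1.32. Slc4a9, at 3.51 and 0.44, was not called.

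Genes of steroid action showed no called gene on the epididymis side, where 10.2% of all genes were called. The share higher in SVF was 20%, beside 8.68% of all genes. Of 20 measured, 4 were higher in SVF: Hsd11b1, which regenerates active glucocorticoid (-3.78 and -3.95), Sult1e1, the estrogen sulfotransferase (-2.91 and -2.60), the glucocorticoid-induced Tsc22d3 (-1.34 and -1.98) and Hsd17b11 (-1.10 and -1.87). Fkbp5, a target of androgen and glucocorticoid receptors, was 1.62 and 0.96, just short of the rule. In retinoid metabolism 1 of 19 genes was higher in the epididymis and 4 in SVF. These shares are 5.26% and 21.1%, beside 10.2% and 8.68% of all genes. The enzymes that make retinoic acid divided: Aldh1a1 was 2.84 and 1.96, Aldh1a3 -3.74 and -3.93, and Aldh1a2 -1.15 and -1.38. Rarres2, which codes for the chemoattractant chemerin, was -1.95 and -2.86.

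The secretory pathway list leaned to the epididymis (median 0.71), with 6 of 36 members called there and 3 in SVF. These shares are 16.7% and 8.33%, beside 10.2% and 8.68% of all genes. Pdia6, a protein-folding isomerase of the endoplasmic reticulum, was 2.46 and 2.71, and Sdf2l1, a chaperone cofactor, was 1.95 and 2.59. Creb3l4, a membrane-bound transcription factor, was 1.30 and 1.72, and -4.06 in epididymis over testis. The stress factors Atf4 and Ddit3 were higher in SVF at -1.86 and -2.65, and -1.12 and -1.96.

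Glutathione and antioxidant genes were called in both directions, 10 of 37 higher in the epididymis and 5 in SVF. These shares are 27% and 13.5%, beside 10.2% and 8.68% of all genes. Gstm6, a glutathione transferase, was 3.61 and 4.20. Gclm, the regulatory subunit of the enzyme that limits glutathione synthesis, was 2.64 and 2.60, and the cystine carrier Slc7a11 was 1.88 and 1.90. Prdx3, a mitochondrial peroxiredoxin, was 2.14 and 1.84. Hmox1, the inducible heme oxygenase that macrophages also express, was 14.6-fold higher in SVF at -3.32 and -4.41. Gsto1 was -1.34 and -1.98.

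Cholesterol synthesis genes were higher in the epididymis in 8 of 19 cases and never in SVF, with a median of 0.64. Nsdhl was 2.96 and 2.44, Fdps 2.92 and 2.25, Sqle 2.34 and 2.01, Tm7sf2 1.72 and 2.47, Lss 2.02 and 1.64, and Cyp51 1.90 and 1.51. These 6 enzymes act along the route from the making of farnesyl diphosphate to the later sterols, and each was called on both arrays. Energy metabolism lay closer to the middle. Of 23 citrate cycle genes 5 were higher in the epididymis, among them Mdh1 (2.08 and 2.18) and Pcx (1.74 and 2.00), and of 23 genes of fatty acid oxidation 2 were, Eci1 (1.93 and 1.37) and Crot (1.17 and 1.12). The shares called in the epididymis were 21.7% and 8.7%, beside 10.2% of all genes. Neither list had a member called in SVF, and the second list's median was -0.05.

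Reference genes lay toward the middle of the range. None of 19 was called, and their median was 0.02. Psmb2, at 0.99 and 1.38, and Tfrc, at -0.63 and -1.38, passed 2-fold on the mean but not on both arrays. Ppia was 0.60 and -1.19, and Tbp -0.37 and 1.17, each with arrays of opposite sign. Actb and Gapdh are read by 305 and 257 probes, and serve as a check of repeatability within an array. The Actb probes had a median of -0.24 with an SD of 0.20 over probes on array 1, and -0.93 with an SD of 0.22 on array 2. The Gapdh probes had medians of 0.24 and -0.71, with SDs of 0.19 and 0.28. For both genes the gap between arrays was larger than the SD over probes on either. Of 31 proteasome subunits, 2 were called, Psma3 (2.54 and 1.15) and Psmd1 (1.25 and 1.22), with a list median of 0.36. That share is 6.45%, beside 10.2% of all genes called higher in the epididymis. Among genes with at least 2 probes and both arrays within 0.1 of 0, the 5 nearest to 0 were Zfyve26, Marf1, Trappc8, Chadl and Ankrd26, all between -0.01 and 0.01 on the mean.

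**Figure D3:**
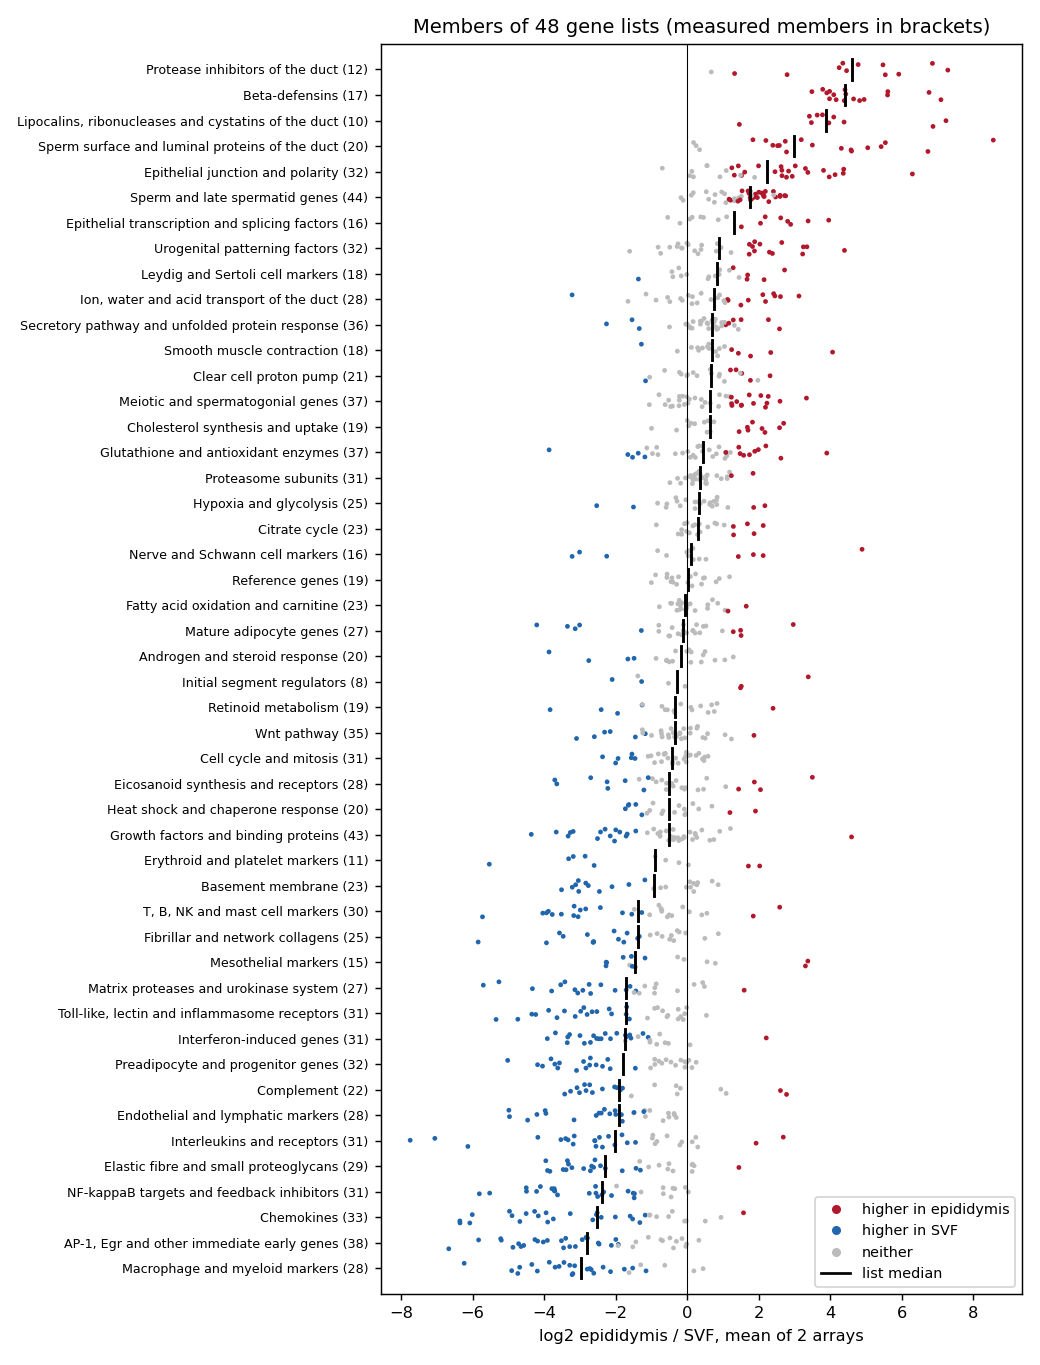
Mean log2 epididymis over SVF (x axis) of every measured member of 48 gene lists (rows, with the number of members measured), coloured by the 2-fold rule, with a black bar at each list's median. Medians run from -2.97 for macrophage and myeloid markers to 4.62 for protease inhibitors of the duct, and no reference gene is coloured.

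Germ cell transcripts were also higher in the epididymis RNA than in SVF. Of 44 genes of late spermatids and sperm, 26 were called on the epididymis side and none on the SVF side, with a median of 1.75 directly and 0.95 by the chain through testis. Akap4, the main protein of the sperm tail's fibrous sheath, was 2.68 and 2.78. Tekt2, a tail filament protein, was 2.37 and 3.14, the sperm glycolytic enzyme Pgk2 3.21 and 1.99, the acrosomal Crisp2 2.66 and 2.54, and the sperm mitochondrial protein Smcp 3.07 and 1.88. The protamine gene Prm1, whose product packs sperm DNA, was 2.16 and 1.59. Epididymis over testis, measured on 2 other arrays with the same epididymis RNA, gave Akap4 as -3.98, Tekt2 as -2.99, Pgk2 as -3.66, Crisp2 as -2.97 and Smcp as -2.28. Each of these 5 transcripts was therefore lower in the epididymis than in testis and higher there than in SVF.

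Genes of meiosis and spermatogonia, which the duct's lumen does not normally hold as cells, were higher in the epididymis in 14 of 37 cases, with a median of 0.64. The synaptonemal complex genes Sycp1 and Syce1 were 2.45 and 1.93, and 2.58 and 1.88. Mael and Gtsf1, of the piRNA pathway, were 2.60 on both arrays, and 1.86 and 2.26. Ddx4, a germ cell helicase, was 1.71 and 2.82. The largest ratio of this list belonged to Gfra1, the GDNF co-receptor, at 2.84 and 3.83, and Gfra1 was 3.63 in epididymis over testis, where Mael was -3.45, Ddx4 -4.05 and Sycp1 -3.92. Testis somatic markers were higher in the epididymis in 5 of 18 cases and in SVF in 1. Inha, an inhibin subunit, was 3.67 and 1.78, Aard 2.42 and 1.89, Amhr2 1.30 and 2.08, Tsx 1.77 and 1.58, and Sox9, which duct epithelium also expresses, 1.25 and 1.33. The Leydig cell genes Star and Cyp17a1 were 0.54 and -0.56, and 1.92 and 0.98, and Amh and Fshr of Sertoli cells were within 2-fold on both arrays. Dhh was -1.19 and -1.54. How much of the germ cell signal came from luminal sperm, from shed cells or from testis in the sample was not tested.

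**Figure D4:**
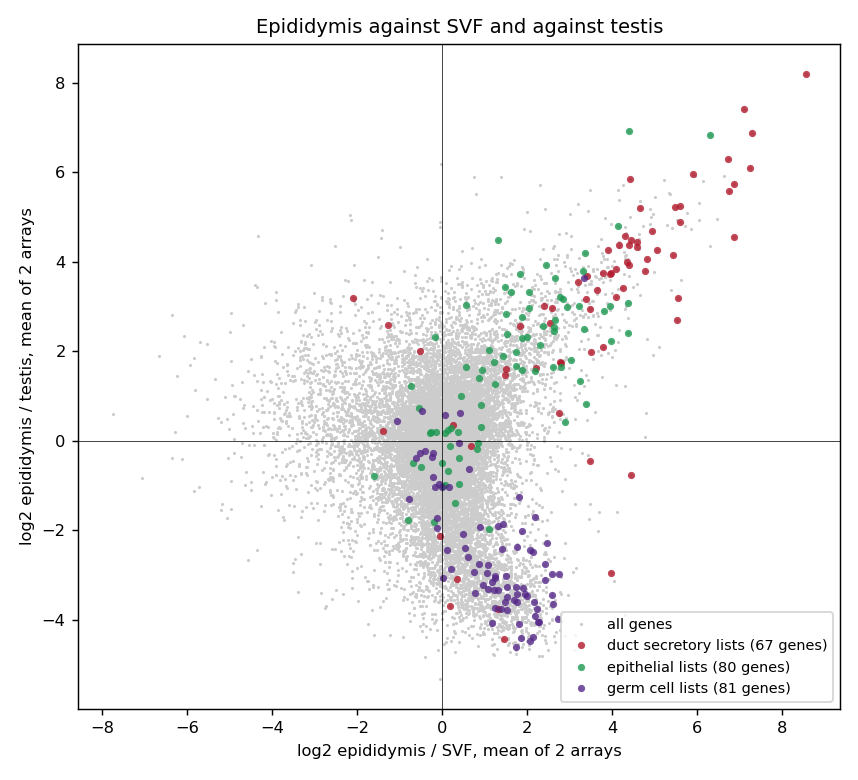
Mean log2 epididymis over SVF (x axis) and mean log2 epididymis over testis (y axis) for all genes in grey and for genes of the duct, epithelial and germ cell lists in colour; the axes share the epididymis RNA. Duct genes such as Pate6 (8.57 and 8.19) lie high on both, while germ cell genes such as Akap4 (2.73 and -3.98) lie right of 0 and below 0.

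Smooth muscle genes had a median of 0.70, with 5 of 18 higher in the epididymis and 1 in SVF. Actg2, the actin of visceral muscle, was 3.83 and 4.30, Mylk, the kinase that starts contraction, 2.39 and 2.29, Myh11, the smooth muscle myosin, 2.16 and 1.39, Tagln 1.64 and 1.22, and Synm 1.02 and 1.46. The Synm value is the average of 2 probes, 1 at 1.64 and 1.09 and the other, not called, at 0.41 and 1.84. Pln, which restrains the calcium pump, was -1.53 and -1.03. Acta2 and Des, which vascular cells of fat also express, were 1.28 and 0.43, and 0.45 and 0.13, and were not called.

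At the SVF end stood cytokine and immediate early genes. Il6, the interleukin of acute inflammation, was the lowest of all genes at -8.41 and -7.09, a mean of -7.75 ± 0.93 or 215-fold higher in SVF. Its upstream window, printed above, holds 1 run of the NF-kappaB letters. Tnf was -6.85 and -7.28, or 134-fold, and Il1b, the fever-causing interleukin, was -6.11 and -6.16. The arrays for Tnf and Il1b lay close together. The chain through testis gave -5.83 for Il6, -6.66 for Tnf and -5.94 for Il1b. Of 31 interleukin and receptor genes, 19 were higher in SVF and 2 in the epididymis, with a median of -2.02. The decoy receptor Il1r2 was -3.04 and -5.32, the receptor antagonist Il1rn -2.76 and -4.31, and Il10ra -3.40 on both arrays. The receptors Il17rb and Il13ra2 went to the epididymis, at 2.85 and 2.53, and 1.13 and 2.72.

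Immediate early genes were higher in SVF in 25 of 38 cases and never in the epididymis, with a median of -2.81. Fos and Fosb, subunits of AP-1, were -6.01 and -7.33, and -4.27 and -6.13. Egr1, a zinc finger factor induced by serum, was -5.07 and -6.60, Nr4a1, an orphan nuclear receptor, -4.41 and -5.02, and Ier5 -4.96 and -5.48. Dusp1, the phosphatase that ends stress kinase signals, was -4.49 and -5.26. All 6 were larger in size on array 2. By the chain through testis Fos was -4.49, Egr1 -5.09 and Ier5 -6.51. Of the 13 members not called, Egr2, Rhob and Ier2 had means of -0.04, -0.01 and -0.69, singled out after their values were seen.

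NF-kappaB targets and inhibitors were higher in SVF in 22 of 31 cases, with a median of -2.39 and none in the epididymis. Nfkbiz and Nfkbid, inhibitor-like proteins of the nucleus, were -5.52 and -5.53, and -3.50 and -5.49. Cd83, a surface molecule of activated antigen-presenting cells, was -5.45 and -6.18. Tnfaip3, the ubiquitin editor A20 that shuts the pathway off, was -3.67 and -4.76, Traf1 -4.19 and -4.82, and Bcl3 -3.90 and -4.32. Nfkbia, whose upstream window is printed, was -2.56 and -2.45. Of 20 heat shock genes, 5 were higher in SVF and 2 in the epididymis, with a median of -0.51. These shares are 25% and 10%, beside 8.68% and 10.2% of all genes, so the epididymis share was that of the background. Dnajb1 averaged -1.73 ± 0.38, and Bag3 was -1.65 on both arrays. Cryab was -1.51 and -1.76, and Hspb1 -1.41 and -1.47. Hspa1b was -1.23 and -1.31 directly and -3.57 by the chain, where its epididymis over testis value had an SD of 3.74. Hspb6, of smooth muscle, and Hspa1l, of germ cells, were higher in the epididymis, at 2.13 and 1.69, and 1.12 and 1.27. Of 25 hypoxia and glycolysis genes, 2 were called on each side, among them Adm, the vasodilator adrenomedullin (-2.57 and -2.49), and Pdk1 (2.15 and 2.20). The share of 8% on each side lay below the 10.2% and 8.68% of all genes. The labels do not say how either sample was prepared, and preparation and tissue cannot be told apart with 1 RNA per tissue.

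Chemokines, which draw leukocytes into tissue, were higher in SVF in 23 of 33 cases, with a median of -2.52. The neutrophil attractants Cxcl1 and Cxcl2 were -5.80 and -6.22, and -5.81 and -6.92. Ccl11, or eotaxin, was -5.21 and -7.51, with a direct mean of -6.36 against -4.04 by the chain. Cxcl10, induced by interferon, was -5.79 and -6.37, Ccl7 -3.85 and -6.10, and Ccl5 -5.04 and -4.76. Ccl27a was the exception at 1.73 and 1.42. It was lower in the epididymis than in testis, at -2.81 in epididymis over testis and 3.86 in testis over SVF. Interferon-induced genes were higher in SVF in 21 of 31 cases, with a median of -1.73. Gbp2 and Gbp3, guanylate-binding proteins, were -3.72 and -4.11, and -3.12 and -3.46. Oasl1 was -3.54 and -3.83, Irf1 -3.61 and -3.10, Iigp1 -3.27 and -3.42, and Rsad2 -2.72 and -3.28. Isg20, an exonuclease, was higher in the epididymis at 2.70 and 1.73.

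Receptors that sense microbes were higher in SVF in 18 of 31 cases, and none was higher in the epididymis (median -1.71). Tlr2 was -5.70 and -4.99 directly and -3.32 by the chain. Cd14, the endotoxin co-receptor, was -4.11 and -4.59, Tlr7 -3.97 and -4.51, the inflammatory caspase Casp1 -3.52 and -4.23, and Clec7a, the beta-glucan receptor, -3.59 and -3.70. Complement genes were higher in SVF in 13 of 22 cases and in the epididymis in 2. The chains of C1q were close to each other: C1qa averaged -3.01 ± 0.53, C1qb -3.26 ± 1.17 and C1qc -3.08 ± 0.40. C1ra was -3.12 and -3.73, Fcna -2.51 and -3.23, and Cfb -2.88 and -2.78. The 2 on the epididymis side were Clu, which codes for the sperm-coating protein clusterin (3.83 and 1.73), and Cfi, a regulator that cleaves C3b (2.86 and 2.36).

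Of 28 eicosanoid genes, 8 were higher in SVF and 4 in the epididymis. These shares are 28.6% and 14.3%, beside 8.68% and 10.2% of all genes. Alox5ap, Ltc4s and Tbxas1, of leukotriene and thromboxane synthesis in leukocytes, were -4.08 and -3.33, -2.74 and -2.66, and -3.23 and -4.07, and the prostacyclin synthase Ptgis was -1.90 and -2.54. Ptgds, a prostaglandin D synthase of the lipocalin family that is abundant in the duct's fluid, was 3.63 and 3.38, and Pla2g12a was 1.96 and 2.14.

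Macrophage and myeloid markers had the lowest median of the 48 lists, -2.97, with 23 of 28 higher in SVF and none in the epididymis. Lilrb4a, an inhibitory receptor, led at -6.28 and -6.20. Cd163 and Mrc1, scavenger and mannose receptors of resident macrophages, were -4.54 and -4.83, and -4.44 and -5.03. F13a1 was -4.15 and -5.67, Folr2 -3.20 and -4.52, Adgre1, which codes for F4/80, -3.72 and -2.68, and Cd68 -2.38 and -1.91. Ptprc, the common leukocyte antigen, was -3.84 and -2.46. The 5 not called were Aif1, Clec12a, Itgam, Mpeg1 and Cd300lf, with means from -1.63 to 0.45.

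Lymphoid and mast cell markers were higher in SVF in 15 of 30 cases and in the epididymis in 2, with a median of -1.37. Gzma, a granzyme of cytotoxic cells, was -4.24 and -7.21. The B cell genes Ighm, Cd79a and Ms4a1 were -3.51 and -4.57, -2.06 and -4.27, and -3.23 and -3.12. The T cell receptor subunits Cd3g, Cd3e and Cd3d were -3.87 and -3.17, -1.57 and -2.05, and -1.53 and -1.57. The mast cell proteases Cma1, Mcpt4 and Cpa3 were -3.17 and -4.71, -3.52 and -4.24, and -2.07 and -2.78. The mast cell receptor genes Kit and Ms4a2 were not called, at 0.20 and -0.08, and -0.17 and 0.98. The natural killer receptors Klrd1 and Ncr1 were -3.04 and -4.51, and -3.24 and -2.44, whereas Klrb1c was higher in the epididymis at 2.74 and 2.44. Cd4, Cd8a and Cd8b1 were not called, with means of -0.13, -0.43 and -0.51, and Foxp3 was 1.19 and 2.50.

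Endothelial and lymphatic markers were higher in SVF in 18 of 28 cases and in the epididymis in none, with a median of -1.92. The endothelin receptor Ednrb was -4.65 and -5.33, Lyve1, a hyaluronan receptor of lymphatics and some macrophages, -4.37 and -5.57, Tek, the angiopoietin receptor, -4.09 and -4.32, Cldn5 -3.44 and -4.47, and Pecam1 -2.30 and -1.70. The 10 not called were Cdh5, Kdr, Flt1, Vwf, Erg, Sox18, Prox1, Plvap, Icam2 and Adgrl4, with means from -1.50 to -0.31. Among them Cdh5 was -0.18 and -0.87, Kdr -1.44 and -0.94, and Vwf -0.82 and 0.21. Mesothelial markers were higher in SVF in 8 of 15 cases and in the epididymis in 2, the keratins Krt8 and Krt18 given above. Upk3b was -2.29 and -2.22, Msln -2.03 and -1.09, and Slpi, an antiprotease, -2.41 and -2.13, while Wt1 was -2.70 and -0.52 and was not called.

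Blood markers were called in both directions, with a median of -0.90. The shares were 45.5% in SVF and 18.2% in the epididymis, beside 8.68% and 10.2% of all genes. Of 11 erythroid and platelet genes, 5 were higher in SVF: the globins Hba-a1 (-1.90 and -3.81) and Hbb-b1 (-2.24 and -2.97), the red cell heme enzyme Alas2 (-3.25 and -3.39) and the platelet chemokines Pf4 (-5.19 and -5.89) and Ppbp (-3.37 and -3.00). Slc4a1, Gp1bb, Epb42 and Gp9 were not called, with means of -0.90, -0.60, -0.23 and 0.03. Itga2b and Hemgn were higher in the epididymis, at 2.52 and 1.54, and 1.86 and 1.57. In epididymis over testis they parted, with Itga2b at 2.73 and Hemgn at -3.81. The part of blood in the leukocyte values was not tested. Nerve and Schwann cell markers gave 4 of 16 members higher in the epididymis and 3 in SVF, shares of 25% and 18.8%. Mal, a raft protein of myelin and of epithelial apical membranes, was 4.44 and 5.35, the myelin genes Pmp22 and Mbp were -2.71 and -3.73, and -2.91 and -3.12, and Sox10 was 0.53 and -0.55.

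Progenitor genes of fat were higher in SVF in 17 of 32 cases and never in the epididymis, with a median of -1.80. The homeobox factor Meox2 was -5.57 and -4.48, or 32.5-fold on the mean. Cebpd, an early factor of adipocyte differentiation, was -3.21 and -5.16, Cd248, a stromal surface protein, -4.30 and -3.79, Bmper -3.87 and -3.75, Pdgfrb, the receptor of pericytes and progenitors, -3.48 and -3.76, and Icam1 -3.49 and -3.92. Mature adipocyte genes were called in both directions, with 5 of 27 higher in SVF, 4 in the epididymis and a median of -0.11. These shares are 18.5% and 14.8%, beside 8.68% and 10.2% of all genes. Plin2, a lipid droplet protein that macrophages and other cells also carry, was 18.5-fold higher in SVF at -4.10 and -4.32. Lpl, Cd36 and Fabp4, which endothelium or macrophages share, were -2.77 and -3.93, -2.72 and -3.55, and -2.06 and -3.96. The defining genes of the fat-laden cell were nearer to 0: Adipoq was -0.77 and -0.82, Plin1 -0.39 and 0.72, Lep -0.46 and -1.13, and Cidec -1.43 and -1.13, the last of them called. Scd2, a desaturase of lipid synthesis, and Gpd1 were 3.24 and 2.69, and 1.94 and 1.07.

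Extracellular matrix genes were among the broadest SVF groups. Fibrillar and network collagens and their processing genes were higher in SVF in 14 of 25 cases and never in the epididymis (median -1.39). Pcolce2, an enhancer of procollagen processing, was -4.89 and -6.81, Col5a2 -3.15 and -4.73, Col5a1 -3.74 and -3.41, Col15a1 -3.41 and -3.53, and Col14a1 -3.02 and -2.57. Elastic fibre and small proteoglycan genes had a median of -2.29, with 18 of 29 higher in SVF and 1 in the epididymis. Lox, the enzyme that crosslinks collagen and elastin, was -3.50 and -4.41, Mfap5 -3.35 and -4.47, Fbln2 -3.49 and -4.19, and the proteoglycans Dcn and Lum were -3.06 and -3.72, and -3.51 and -3.19. Ltbp2, a fibrillin-associated protein, was 1.83 and 1.06.

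Of 23 basement membrane genes, 11 were higher in SVF and none in the epididymis, with a median of -0.94. Col4a2 was -3.39 and -3.65, Lamb1 -2.95 and -3.29, Lamc1 -2.99 and -3.10, and Nid2 -2.77 and -3.66. Matrix proteases and the urokinase system were higher in SVF in 16 of 27 cases (median -1.71). Mmp12, the macrophage elastase, was -4.91 and -6.50 directly and -3.41 by the chain, and Fap, the protease of activated fibroblasts, -4.72 and -5.82. The plasminogen activator Plau was -3.93 and -4.73, and -2.40 by the chain. The inhibitor Timp2 was -2.99 and -4.09. Mmp7, the matrilysin of glandular epithelium, stood alone on the epididymis side at 1.47 and 1.71. Has1, a hyaluronan synthase and the sixth lowest gene of all, was -6.14 and -6.46.

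Growth factor genes leaned to SVF in 15 of 43 cases, with a median of -0.52. Gdf10 was -3.56 and -5.17, Hbegf, a ligand of the EGF receptor, -3.18 and -4.15, Angptl4 -2.92 and -3.74, and the lymphatic growth factors Vegfc and Vegfd -3.33 and -3.21, and -3.56 and -2.82. Egf was the single member higher in the epididymis, at 5.24 and 3.95, or 24.2-fold on the mean. The pair Egf and Hbegf, ligands of the same receptor, therefore lay at opposite ends of the list. In the Wnt pathway 6 of 35 genes were higher in SVF and 1 in the epididymis, against backgrounds of 8.68% and 10.2%. The secreted antagonists Sfrp4, Sfrp2 and Sfrp1 were -2.77 and -3.42, -1.94 and -2.37, and -1.73 and -1.17. Sfrp1 is the average of 2 probes, 1 at -1.87 and -2.41 and the other, not called, at -1.60 and 0.08. Rspo1 was -2.09 and -2.53, and the ligand Wnt4 was 1.78 and 1.96. Cell cycle genes were higher in SVF in 6 of 31 cases and never in the epididymis, with Cenpa at -1.82 and -2.91, Mcm6 at -1.68 and -2.32, and Mki67 at -2.04 and -1.83.

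Neighbouring genes were compared next. In the gene order of RefSeq, the next measured gene had the same call for 14.8% of 1869 epididymis-high genes, beside 10.2% of all genes, and for 13% of 1590 SVF-high genes, beside 8.68%. Runs of at least 5 such neighbours, chosen here after their values were seen, numbered 7 on the epididymis side and 5 on the SVF side. The longest, of 7 genes each, were the cystatin run from Cstl1 through Cst11 to Cstdc2, with means from 1.22 to 6.63, and the beta-defensin runs from Defb1 to Defb35 (3.91 to 5.61) and from Defb40 to Defb14 (3.49 to 7.10). A run of 6 glutathione transferases held Gstm5, Gstm6, Gstm3, Gstm2, Gstm1 and Gstm4, with means from 1.09 to 3.91. The Pate genes formed another with Hyls1, and Ido1 stood beside the germ cell genes Adam18, Adam3, Adam5 and Adam32, whose means of about 2 were lower than the 4.32 of Ido1.

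On the SVF side the class II antigen presentation genes H2-Ob, H2-Ab1, H2-Aa and H2-Eb1 made a run with Psmb8 and Tap2, with means from -3.77 to -1.94. The chemokine genes made a pair of runs: Ccl2, Ccl7, Ccl11, Ccl12 and Ccl8, from -6.36 to -3.27, and Ccl5, Ccl9, Ccl6, Ccl3 and Ccl4, from -4.90 to -4.17. The interferon-inducible Ifi204 and Ifi203 lay in a run with Ackr1, and the interleukin 1 receptor genes Il1r2, Il1r1, Il1rl2 and Il18r1 in a run with Map4k4. Neighbouring paralogues are alike in sequence, and how far a probe of one reads transcripts of another was not tested.

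**Figure D5:**
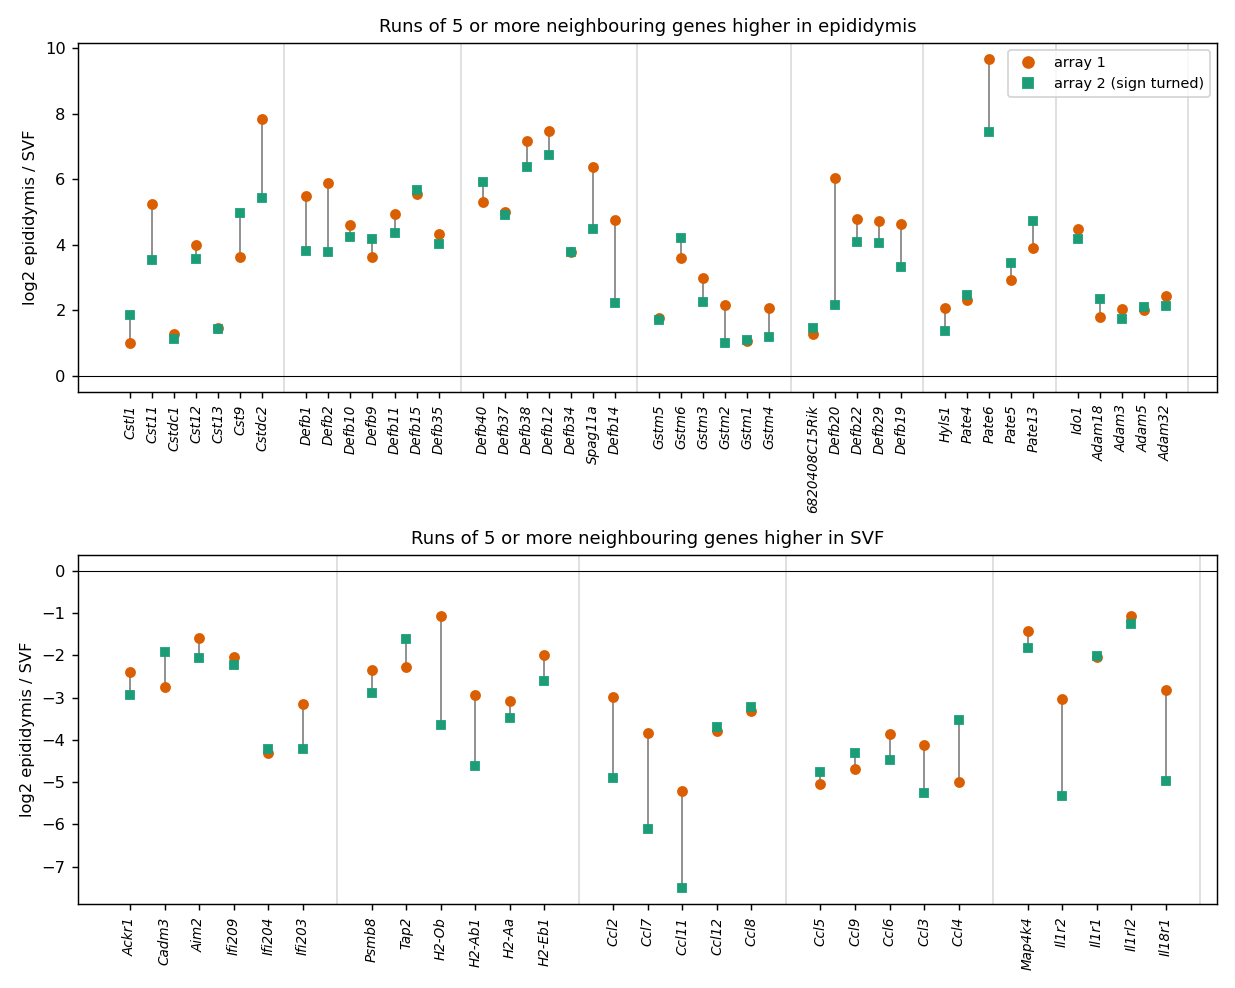
Log2 epididymis over SVF (y axis) for the runs of at least 5 neighbouring measured genes with the same call (x axis, genes in chromosomal order, runs parted by grey lines), higher in epididymis above and in SVF below; circles are array 1 and squares array 2 with its sign turned. Members of a run differ in size, as in the cystatin run from 1.22 to 6.63.

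The 2 arrays disagreed for some genes. In 286 genes (1.54%) they passed 2-fold in opposite directions, and none of these is called. Bmp8a read -5.80 and 4.87, Rps6kc1 -4.09 and 3.59, and Sox2 -3.56 and 3.94, with means near 0 that describe neither array. The arrays also differed by side. Array 1 was larger in 58.7% of epididymis-high genes, and array 2 was larger in size in 68.7% of SVF-high genes; in both cases the larger value came from the array in which the higher tissue carried Cy5. Among the 24 lowest genes array 2 was larger in size in 21.

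The other 4 arrays give the same contrast by another route, since epididymis over testis plus testis over SVF is epididymis over SVF. By this chain 83.9% of the 1890 epididymis-high genes and 90.7% of the 1609 SVF-high genes were again past 2-fold in the same direction. In 16 of the first and 13 of the second the chain had the opposite sign. The median gap between direct and chain values was 0.23 in size, beside a median SD of 0.37 over the 2 direct arrays. The widest gap among called genes was in Plek2, a cytoskeletal pleckstrin, at 3.33 and 3.61 directly and -1.22 by the chain, where its epididymis over testis arrays had an SD of 5.14. Ccl6 was -3.86 and -4.47 directly and -0.98 by the chain, with SDs of 0.53 and 0.27 on the other pairs. Tmbim4 was 3.18 and 2.59 against -0.28. These genes, singled out after their values were seen, have no settled size. The same limit holds where probes of a gene differ: 10 genes had probes called in opposite directions, such as Vit, with 1 probe averaging -3.09 and another 1.41.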

How the data were processed

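The deposited table holds 1 log2 ratio per probe and array for 25344 probes on 6 2-colour arrays, with no missing value; the labels and the table give no normalization, background correction, scanner intensity or build ("not given in the sources used here"). Its log2 unit, and the Cy5 over Cy3 direction, are readings of the values. Probe names come from a platform annotation, updated through RefSeq: 20456 probes matched by gene ID and 220 by symbol, and 248 kept their name. The 158 non-mouse and 30 ambiguous names and 4232 probes not listed there are unnamed here. Array 2 was turned, both arrays averaged per probe, and probes averaged per gene (Python 3 with pandas and numpy; 1626 of 18545 genes have several probes). The size rule was 2-fold (log2 of 1) on both arrays. It was also run on simulated ratios with normally distributed noise and a small dye effect. Gaps between the arrays of some genes here are wider than that dye effect, and no error rate is taken from the simulation. No signal over background was at hand, so the number of arrays limits the precision. Named genes were the 24 highest and 24 lowest, the 6 largest and up to 2 opposing members per list, all cell markers and reference genes, and the 5 nearest to 0. The members and the 48 lists, with 1230 measured of 1372 entries, were chosen with earlier results of these data known. Alternatives were centring, the loop, the chain through testis, other thresholds, probe rules, a natural logarithm and each array alone.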

Additional observations from a re-analysis of the deposited data

How the results depend on the processing

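The 1890 genes higher in epididymis and 1609 higher in SVF kept within 1.5 times of these counts under centring, the least-squares loop, the chain through testis, 2-fold on the mean alone, single probes, the median or largest probe, values on all 6 arrays and a natural logarithm, where they ran from 1281 to 2772 and from 1420 to 2172. At 4-fold on both arrays, a stricter rule by construction, 500 and 675 genes were left. A single array, which drops the demand that both pass, gave 3201 to 3216 genes higher in epididymis and 2670 to 2706 higher in SVF. Of the 48 list medians, 44 kept 1 sign under centring, the loop, the chain and each array alone. The exceptions were the lists of steroid response, fatty acid oxidation, reference genes and nerve markers, all with medians within 0.2 of 0. Sign was counted here and not size. By the chain the chemokine median was -1.65 against -2.52 directly. That of the duct's protease inhibitors was 5.19 against 4.62. Of 334 named genes that met the size rule, 318 were past 2-fold in the same direction by the chain, 333 by the loop and 334 after centring. No paired analysis was possible because both arrays hybridise the same 2 RNA samples and no test was run between groups.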
